A study of Mus musculus with 6 samples.

Results

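Accessible chromatin was examined at the 6 mouse genes that encode positive transcription elongation factor b (P-TEFb) and the proteins that hold it inactive, namely Cdk9, Ccnt1, Ccnt2, Hexim1, Hexim2 and Larp7. Every ATAC-seq peak overlapping the body of one of these genes or the 10000 bp on either side was taken (mm10, GENCODE M21), which gave 25 merged regions of 112852 in all. The cells were murine LSCs, leukemia stem cells driven by the fusion oncogene MLL-AF9 and named L-GMP (leukemic granulocyte-monocyte progenitor) cells in the labels, which give their genotype as WT and their tissue as blood. All 6 samples were grown with IL3. The 3 Control samples received no MMF, and the 3 MMF samples were treated for 24 h with mycophenolate mofetil (MMF), an inhibitor of IMP dehydrogenase, the enzyme that commits purine precursors to guanine nucleotides. The study describes dose and time in more than one way, so the time is that of the labels and no dose is given. The labels do not say whether replicates came from separate cultures or animals, so the p-values below measure the spread between these samples, which may be technical. The question was whether accessibility at the genes of this elongation factor differed after the block of guanine nucleotide synthesis.

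P-TEFb is the kinase that lets paused RNA polymerase II enter productive elongation. It consists of the kinase CDK9 and a regulatory cyclin, cyclin T1 (Ccnt1) or cyclin T2 (Ccnt2). Much of it is kept inactive in a particle built on the small nuclear RNA 7SK, in which HEXIM1 or HEXIM2 blocks the kinase and LARP7 binds and stabilizes the RNA. In leukemia with MLL fusions, partner proteins such as AF9 bring P-TEFb to MLL target genes as part of the super elongation complex, and HEXIM1 is known to rise in several cell types when transcription or nucleotide supply is disturbed. ATAC-seq reads out where the transposase Tn5 can enter chromatin and does not measure the mRNA or protein of these genes. In these bulk samples, fewer cells with an open site and a less open site in each cell cannot be told apart.

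The sequences under the summits show what the peaks of these genes hold. They were read from the RefSeq copy of GRCm38, run 5′ to 3′ on the strand of the gene named, and carry in capitals the letters that matched a searched motif on either strand. Each promoter stretch was centred on a summit, the position with the most reads, and was trimmed where an untranslated region began. The stretches at Hexim2 and Ccnt1 are not shown because untranslated sequence of the full GENCODE M21 annotation breaks them up. The gained region is printed whole because it was the only stretch with a peak in every MMF list and in no Control list, and the last 2 stretches because their ranks passed the test described below.
Cdk9 promoter, chr2:32713328-32713448 (minus strand, 121 bases): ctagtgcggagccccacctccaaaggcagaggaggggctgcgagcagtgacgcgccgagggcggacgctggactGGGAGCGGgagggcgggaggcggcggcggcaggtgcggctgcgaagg
Ccnt2 promoter, chr1:127773913-127774033 (plus strand, 121 bases): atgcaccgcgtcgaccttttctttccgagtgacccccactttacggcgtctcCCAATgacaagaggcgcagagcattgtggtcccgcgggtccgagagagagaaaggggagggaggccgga
Hexim1 promoter, chr11:103116023-103116143 (plus strand, 121 bases): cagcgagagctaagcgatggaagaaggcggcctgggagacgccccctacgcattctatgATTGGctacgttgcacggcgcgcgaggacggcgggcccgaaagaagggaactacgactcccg
Larp7 promoter, chr3:127553350-127553425 (minus strand, 76 bases): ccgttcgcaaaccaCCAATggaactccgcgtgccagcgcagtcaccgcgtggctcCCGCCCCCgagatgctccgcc
Region gained upstream of Ccnt1, chr15:98571153-98571385 (minus strand, 233 bases): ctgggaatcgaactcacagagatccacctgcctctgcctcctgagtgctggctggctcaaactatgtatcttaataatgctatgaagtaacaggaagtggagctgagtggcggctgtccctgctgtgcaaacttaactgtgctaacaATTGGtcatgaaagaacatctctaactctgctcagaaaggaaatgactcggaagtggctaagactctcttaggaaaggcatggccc
Region on the 3′ side of Hexim2, chr11:103144395-103144515 (plus strand, 121 bases): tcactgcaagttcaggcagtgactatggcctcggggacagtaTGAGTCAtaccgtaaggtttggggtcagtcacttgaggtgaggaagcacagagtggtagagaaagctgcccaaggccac
Region at the Sh2d3c start, upstream of Cdk9, chr2:32720871-32720991 (minus strand, 121 bases): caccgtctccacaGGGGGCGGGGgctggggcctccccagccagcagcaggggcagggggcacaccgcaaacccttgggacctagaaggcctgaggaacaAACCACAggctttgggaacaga

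The capitals in the Hexim1, Larp7 and Ccnt2 promoters and in the gained region include the NF-Y box CCAAT or its reverse complement. Those at Cdk9, Larp7 and the Sh2d3c start include the KLF/SP pattern CCNCNCCC or its reverse complement. Over 200 bp windows centred on a summit, CCAAT was present in 9 of the 25 regions of the 6 genes, against 23.5% of all regions and 28.7% of the regions at a coding start. The KLF/SP pattern was present in 5 of the 25, against 25.0% of all regions and 54.8% of those at a coding start. The AP-1 site TGANTCA was found in 4 of the 25 and in 16.2% of all regions, and the copy on the 3′ side of Hexim2 reads TGAGTCA. The myeloid motifs C/EBP (TTGCNNAA) and PU.1 (GAGGAAGT) were found in 4 and 2 of the 25 regions, against 15% and 8.27% of all regions. The CRE TGACGTCA was found only at Larp7 and the NRF1 box GCGCATGC only at Hexim1, while the ETS box CCGGAAGT was in none of the 25 windows. RUNX (AACCACA) was found in 2. The windows at the 6 promoters held from 11 CpG dinucleotides at Hexim2 to 27 at Larp7, where regions at a coding start had a median of 15 and all regions a median of 3.

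The number of peaks in the 6 windows was 19, 17 and 15 in the Control lists and 21, 21 and 22 in the MMF lists, while the whole lists held 58496 to 63911 peaks in the Control samples and 80893 to 86556 in the MMF samples. The median summit held between 14 and 19 reads. For each peak the reads over the summit were divided by the lowest background of its sample, in reads, and this ratio is called the level. The same cells carried peaks in all 6 lists at the promoters of 3 of 7 markers of granulocyte-monocyte progenitors (Kit, Cebpa and Spi1), with Mpo the 1 marker without a promoter peak in any list. Fcgr3 and Elane each had one in 1 Control list and 3 MMF lists, and Cd34 in 3 Control and 2 MMF lists. None of the 3 B cell and none of the 3 T cell markers had a promoter peak. Of 3 erythroid markers 1, Klf1, had one in all lists, Epor had one in 2 Control and 3 MMF lists, and Gata1 had none.

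Of the 25 regions, 15 had a peak in all 6 lists, which is 60% against 36.5% of all regions. A single region was gained, with a peak in the 3 MMF lists and in no Control list, where 6% of all regions were gained. None was lost, where 0.182% of all regions were lost. The other 9 were present in some lists of either group, and 6 of these were in a single list, 5 of them MMF lists and 1 a Control list. Cdk9 had 5 regions, Ccnt1 8, Ccnt2 5, Hexim1 3, Hexim2 3 and Larp7 1.

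**Figure D1:**
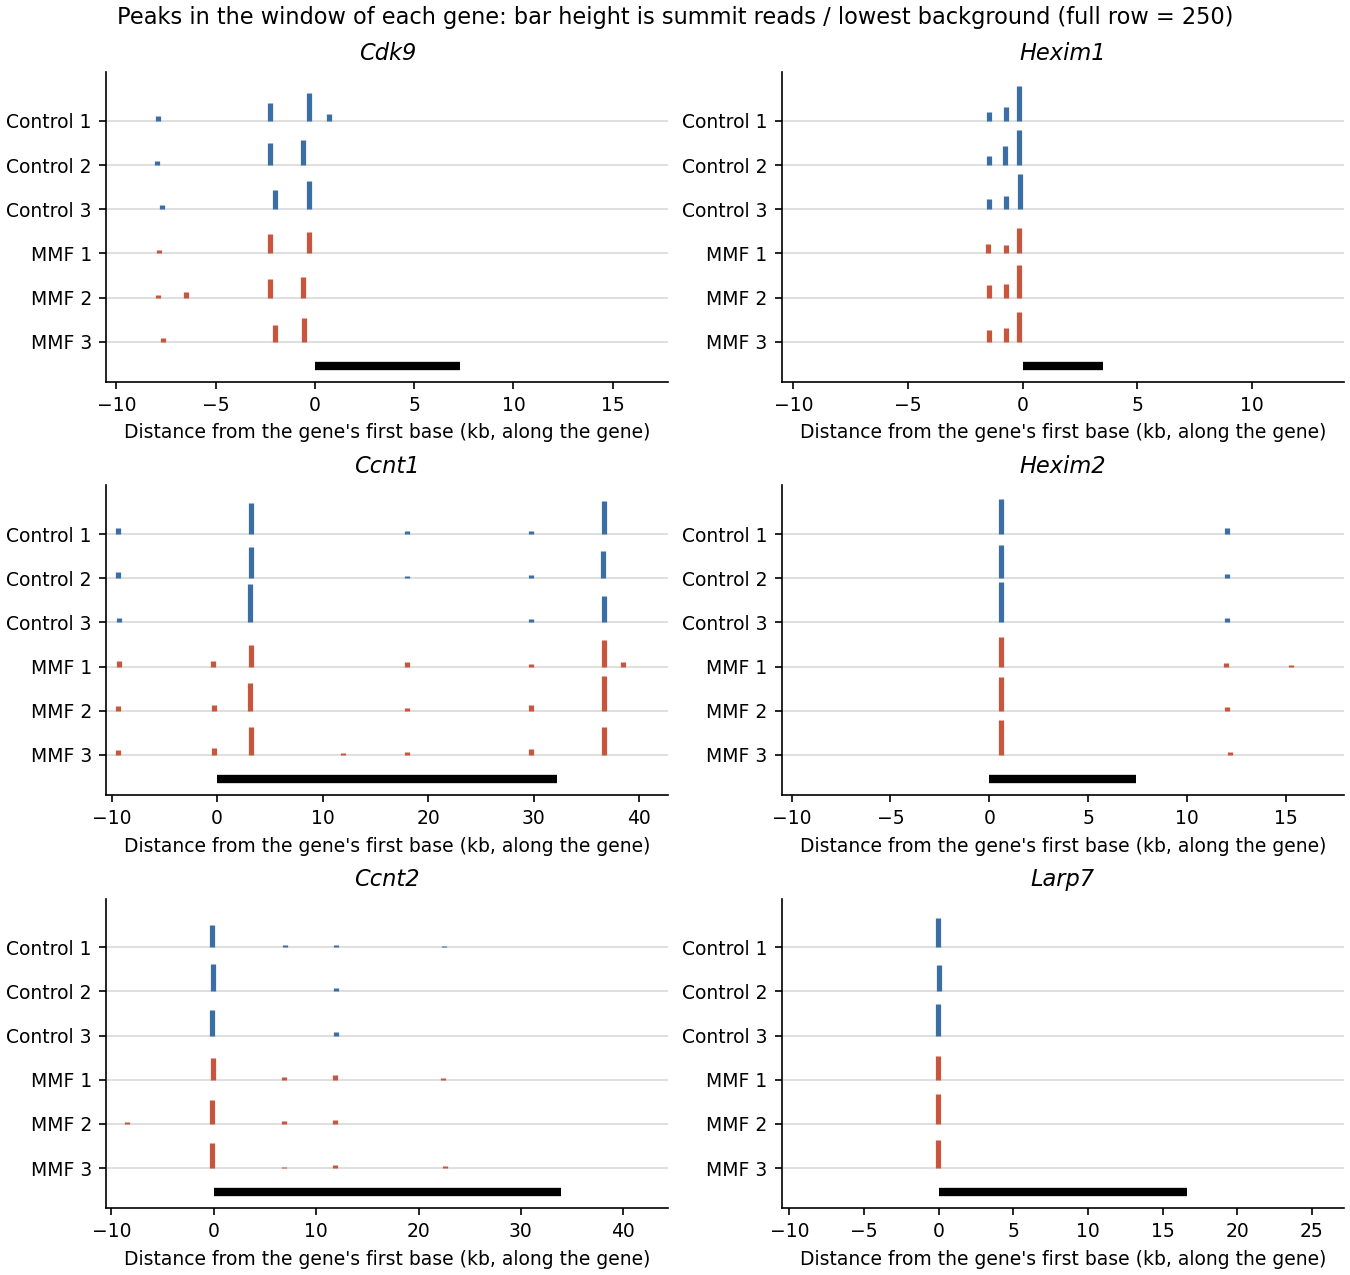
Peaks in the window of each gene, with distance from the first base of the annotated gene along the x axis in kb and 1 row per sample (blue Control, red MMF). Bar height is the level (reads over the summit divided by the lowest background of the sample, a full row being 250) and the black bar is the gene. Each gene has a tall bar near a transcription start in all 6 rows, the Ccnt1 window has another at the start of Kansl2, and at Ccnt1 the short bar next to the first base appears in the 3 MMF rows only.

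The 15 shared regions were compared by level. The log2 difference, MMF minus Control, was below 0 at 11 of them and above 0 at 4, with a median of -0.13 against 0.17 over all 41182 shared regions. At 5 of the 15 every MMF sample lay below every Control sample, where 7.68% of all shared regions did so, and at 0 of the 15 every MMF sample lay above, where 29.1% of all shared regions did so. limma on log2 levels, adjusted over all shared regions, called 2 of the 15, both lower with MMF, where 3.09% of all shared regions were called lower and 21.8% higher. These were the promoters of Ccnt1 and Cdk9. limma on the percentile ranks of fold enrichment within each list also called 2 of the 15 lower, where 0.425% of all shared regions were called lower and 1.44% higher. These were not the promoters but a region on the 3′ side of Hexim2 and one at the start of Sh2d3c, upstream of Cdk9. No region passed in both tests.

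The difference depended on the level across the whole series. In the decile of shared regions with the highest level the median difference was -0.13 and 27.8% of regions were lower without overlap, while in the third decile from the bottom the median was 0.37 and 3.13% were lower without overlap. All 6 promoters lay in the highest decile, as did 8 of the 15 shared regions. Both regions called on ranks lay in the third decile, where their log2 differences of -0.50 and -0.46 stood opposite to the median of that decile. Scaling by the median ratio over shared regions in place of the background moved every difference down by 0.18 log2 units, so differences are also given relative to the other promoters.

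**Figure D2:**
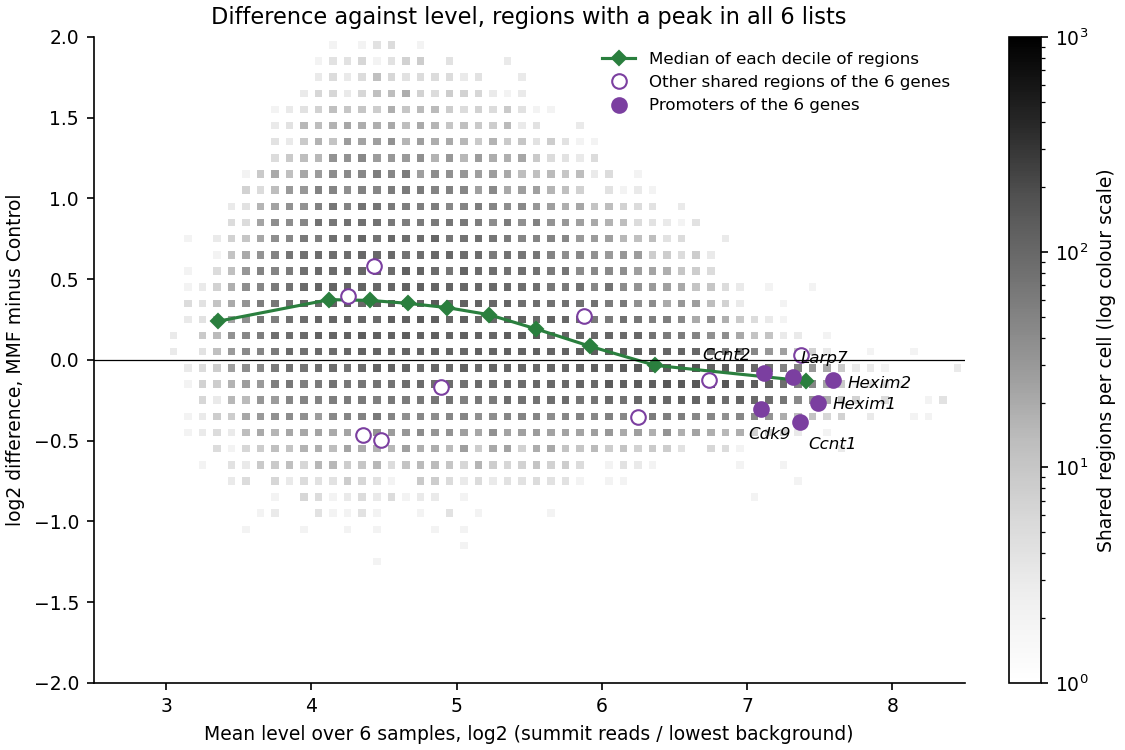
Difference between the groups (y axis, log2, MMF minus Control) against the mean level over the 6 samples (x axis, log2) for regions with a peak in all lists. Grey squares count all shared regions on a log colour scale, green diamonds are the median of each decile of them, and purple circles are the regions of the 6 genes, filled for promoters. The green line runs from 0.24 in the lowest decile through 0.37 in the next ones to -0.13 in the highest, and the 6 promoters lie near it or below it.

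At the promoters, defined as the highest peak within 1000 bp of a transcription start, the mean level was lower with MMF at all 6 genes, with log2 differences from -0.39 to -0.08 and a median of -0.20, although with quantile normalization the difference was above 0 at Hexim2 (0.05), Larp7 (0.04) and Ccnt2 (0.04). By percentile rank in the whole list the mean was higher at Hexim1 (by 1.38 points) and Ccnt2 (by 0.826 points). The same difference was below 0 at 68.1% of the 11704 coding genes with a promoter peak in all lists, whose median was -0.10. At 3 of the 6 genes (Ccnt1, Cdk9 and Hexim1) all MMF samples lay below all Control samples, where 17.8% of the coding promoters did so. At 0 of the 6 they all lay above, where 6.2% did so. The coding promoters used here and below were not matched to the 6 by level. In the highest decile of shared regions by level, which held all 6, the median was -0.13 and 27.8% were lower without overlap. Relative to the median promoter the differences were -0.29 at Ccnt1, -0.21 at Cdk9, -0.17 at Hexim1, -0.02 at Hexim2, -0.01 at Larp7 and 0.02 at Ccnt2. With 3 samples against 3 the two-sided exact permutation test cannot give a p below 0.1, the value at Ccnt1, Cdk9 and Hexim1. At the other 3 genes this exact test gave 0.4 or 0.5.

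**Figure D3:**
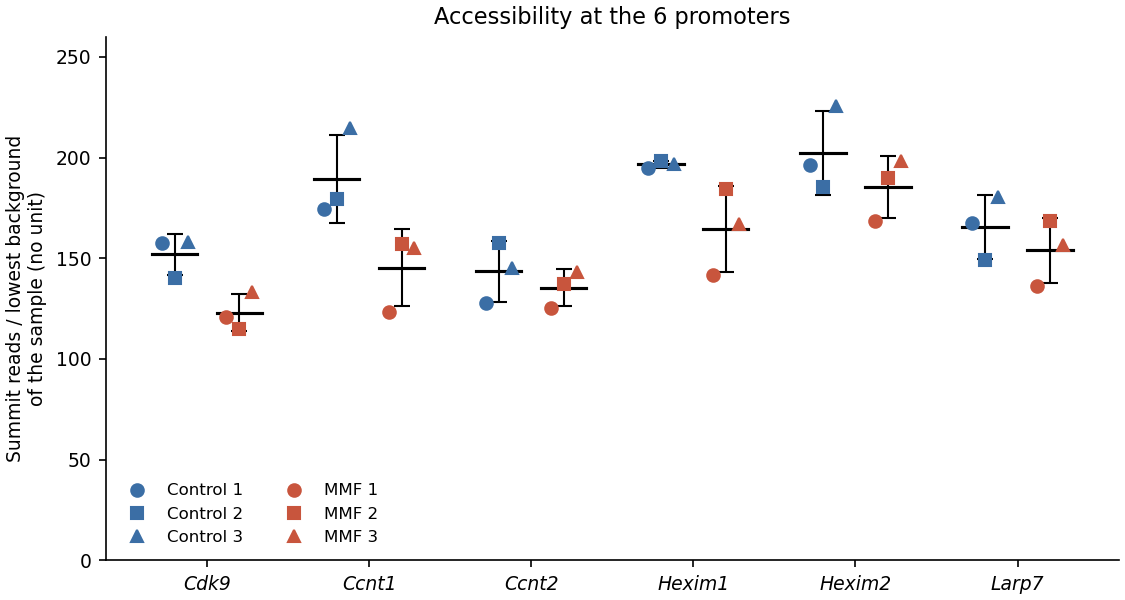
Level at the promoter of each gene (y axis, reads over the summit divided by the lowest background of the sample, no unit) in the 3 Control (blue) and 3 MMF (red) samples, with the mean and SD of each group in black. The groups are apart at Cdk9, Ccnt1 and Hexim1, where the highest MMF samples reach 133, 157 and 184 and the lowest Control samples 140, 174 and 195, and they overlap at Ccnt2, Hexim2 and Larp7.

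Cdk9 encodes the catalytic subunit (ENSMUSG00000009555.16, chr2:32705784-32713076, minus strand). Its promoter region spanned chr2:32712662-32713813, across the annotated start, with its summit outside the gene on the upstream side and within 1000 bp of the microRNA genes Mir2861 and Mir3960. The level there was 158, 140 and 158 in Control and 121, 115 and 133 in MMF LSCs. The groups did not overlap, with 152 ± 10.2 (SD, n = 3) against 123 ± 9.30 (SD, n = 3). The log2 difference was -0.31 ± 0.12 (SE), a ratio of 0.808, with a limma adjusted p of 0.0418. This call was lost without Control replicate 1 (adjusted p = 0.131), Control replicate 3 (0.123), MMF replicate 1 (0.0958) or MMF replicate 2 (0.144), and by limma on ranks the adjusted p was 0.115. The summit lay at one of 2 places in the region, near base 32713375 in Control replicates 1 and 3 and MMF replicate 1 and near base 32713658 in the other samples.

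Upstream of the kinase gene, the region at chr2:32714923-32715482 held levels of 103, 123 and 110 in Control and 108, 106 and 93.1 in MMF LSCs. The groups overlapped, with a log2 difference of -0.13 and a limma adjusted p of 0.519. The region at chr2:32720561-32721164 lay at the start of Sh2d3c, a gene for an adaptor protein of signalling pathways, 8147 bp upstream of the nearest Cdk9 start. Its levels were 24.7, 23.1 and 24.2 in Control and 17.6, 15.6 and 19.2 in MMF LSCs. All MMF samples lay below all Control samples, and the percentile rank moved from a mean of 38.5 to 10.4 with a limma adjusted p on ranks of 0.0428. This call was lost without any 1 sample (adjusted p = 0.0827 to 0.119), where the test on ranks called only 0 to 12 of all 41182 shared regions. On levels the adjusted p was 0.215, and the summits rested on 11 to 18 reads. The 2 remaining regions of the Cdk9 window were each in a single list, one in Control replicate 1 with 30 summit reads and one in MMF replicate 2 with 21.

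Ccnt1 encodes cyclin T1, the cyclin most often found with CDK9 (ENSMUSG00000011960.12, chr15:98538689-98570923, minus strand). Its promoter region spanned chr15:98567235-98568228 and also held the start of the antisense transcript 9330020H09Rik. The level was 174, 179 and 214 in Control and 123, 157 and 155 in MMF LSCs. The groups did not overlap, with 189 ± 21.9 (SD, n = 3) against 145 ± 19.1 (SD, n = 3). The log2 difference of -0.39 ± 0.11 (SE), a ratio of 0.766, was the lowest of the 6 promoters and stood at percentile 6.83 of all coding promoters, with a limma adjusted p of 0.00611. Without Control replicate 3 the adjusted p was 0.0827 and without MMF replicate 1 it was 0.0959, so the call rested on these samples. By limma on ranks the adjusted p was 0.213.

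The gained region was at chr15:98571153-98571385, 303 bp upstream of the first base of the longest Ccnt1 transcript and in an intron of 4930415O20Rik, whose start lies 222 bp away. No Control list held a peak there, and the MMF lists held levels of 33.0, 32.6 and 38.4 from 30, 23 and 26 summit reads. The exact Poisson 95% intervals of these reads were 20.2 to 42.8, 14.6 to 34.5 and 17.0 to 38.1, and they cover counting error only. At the background of the nearest Control peak, 3399 to 3526 bp away, a −log10 p of 3 needed between 15 and 16 summit reads, a level of 22.0 to 24.2. The shortest peaks spanned 150 bp, so a called peak could need more summit reads than that. The 150 bp region of the Cdk9 window seen only in MMF replicate 2 had 21 summit reads, a level of 29.7, at a percentile rank of 1.37. The level in the Control samples is therefore not known, and no upper limit for it can be given. The MMF peaks were weak within their lists, with percentile ranks of 4.36, 4.16 and 7.13, and at equal list length the region was no longer gained. A ratio between the groups cannot be given.

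Elsewhere in the Ccnt1 window, the region at chr15:98540834-98541523 lay in the 3′ untranslated region of Ccnt1. Its levels were 15.1, 17.4 and 21 in Control and 16.5, 32.6 and 34.0 in MMF LSCs. MMF replicates 2 and 3 lay above all Control samples and MMF replicate 1 lay among them, with a log2 difference of 0.58 and a limma adjusted p of 0.119, which became 0.0228 without MMF replicate 1. The strong region at chr15:98533714-98534760 lay at the start of Kansl2, which encodes a subunit of a histone acetyltransferase complex, and had levels of 185, 156 and 152 against 152, 198 and 155. These overlapped, with a log2 difference of 0.03 and a limma adjusted p of 0.878. A region 9356 bp upstream of the gene had levels of 35.7, 36.2 and 24.2 against 34.1, 24.1 and 26.6, which also overlapped (limma adjusted p = 0.654). An intronic region had a peak in 2 Control lists, at 16.5 and 11.6, and in all 3 MMF lists, at 25.3, 12.7 and 14.8. The last 2 regions were each in 1 MMF list, with 24 and 6 summit reads.

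Ccnt2 encodes cyclin T2, the alternative partner of the kinase (ENSMUSG00000026349.14, chr1:127774164-127808061, plus strand). Its promoter region at chr1:127773661-127774702 also held the start of the antisense transcript 2900009J06Rik and had levels of 128, 158 and 145 in Control and 125, 137 and 143 in MMF LSCs. The groups overlapped, with 143 ± 15.1 against 135 ± 9.17 (SD, n = 3 each), a log2 difference of -0.08 ± 0.12 (SE) and a limma adjusted p of 0.666. The difference stood at percentile 54.0 of all coding promoters. Inside the gene, an intronic region 11875 bp from the start had levels of 13.7, 18.8 and 17.7 against 24.2, 24.1 and 17.7, with Control replicate 2 above MMF replicate 3 (log2 difference 0.39, limma adjusted p = 0.323). Another intronic region had a peak in 1 Control list, at 9.60, and in all 3 MMF lists, at 14.3, 14.2 and 8.87. A further one had a peak in 1 Control and 2 MMF lists, from 5 to 9 summit reads. An upstream region was in a single MMF list with 8 reads.

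Hexim1 encodes the main protein inhibitor of the kinase (ENSMUSG00000048878.6, chr11:103116231-103119725, plus strand), and all 3 of its regions were in all lists, with summits 148, 749 and 1488 bp upstream of the start. At the promoter region, chr11:103115869-103116663, the level was 195, 198 and 197 in Control and 142, 184 and 167 in MMF LSCs. The Control mean was 197 ± 1.66 (SD, n = 3), and the MMF samples lay below all Control samples at 164 ± 21.3 (SD, n = 3). The log2 difference was -0.27 ± 0.11 (SE), a ratio of 0.831, with a limma adjusted p of 0.0533. The percentile rank in the whole list, which depends on list length, showed no such direction, with a mean of 81.7 in the Control and 83.1 in the MMF samples (limma adjusted p on ranks = 0.6196). At equal list length the rank difference was -5.29 points, with overlap between the groups, where the median over coding promoters was -5.34. With median-ratio scaling the limma adjusted p on levels was 0.000881. That scaling moved every difference down, to a median of -0.28 over all coding promoters, of which 44.8% were then lower without overlap.

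The 2 regions farther upstream of Hexim1 had differences of opposite sign, neither past the threshold with all samples. At chr11:103115214-103115615 the levels were 81.0, 106 and 74.2 in Control and 49.5, 79.3 and 76.9 in MMF LSCs (log2 difference -0.36, limma adjusted p = 0.0912), a region that was called without Control replicate 3 (0.0471), MMF replicate 2 (0.0438) or MMF replicate 3 (0.0496) and with median-ratio scaling (0.00799). At chr11:103114551-103114860 they were 52.1, 52.1 and 56.4 against 55.0, 72.2 and 68.0 (log2 difference 0.27, limma adjusted p = 0.250). Control replicate 3 lay above MMF replicate 1 there. The percentile rank of that region was higher in every MMF sample, with means of 3.0 and 24.3, and its limma adjusted p on ranks was 0.0993. The local background there, which enters the rank and not the level, was 10.1, 10.62 and 8.98 reads in the Control and 9.58, 8.89 and 7.80 reads in the MMF samples, and its part in the rank was not tested.

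Hexim2 encodes the second inhibitor, which can take the place of HEXIM1 (ENSMUSG00000043372.12, chr11:103132429-103139876, plus strand). It lies next to Hexim1, and the promoter region at chr11:103132267-103133369 had the highest mean level of the 6 genes in both groups, at 196, 185 and 226 in Control and 168, 190 and 198 in MMF LSCs. The groups overlapped, with 202 ± 21 against 185 ± 15.4 (SD, n = 3 each), a log2 difference of -0.12 ± 0.10 (SE) and a limma adjusted p of 0.407. Its peak ranked above 98.7% of the list in every sample. On the 3′ side, the region at chr11:103144145-103144846, outside genes and 11110 bp past the nearest Hexim2 start, had levels of 31.6, 26.0 and 22.6 in Control and 20.9, 21.2 and 14.8 in MMF LSCs. All MMF samples lay below all Control samples, on 10 to 23 summit reads. The mean percentile rank was 70.4 in the Control and 40.3 in the MMF samples, with a limma adjusted p of 0.0466 on ranks and 0.170 on levels. The call on ranks was lost without any 1 sample (adjusted p = 0.0740 to 0.126) and by rank of −log10 p (0.0547). Without any 1 sample the test on ranks called only 0 to 12 of all 41182 shared regions. This is the region with the AP-1 letters shown above. The third region was in MMF replicate 1 only, with 8 reads.

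Larp7 encodes the protein that binds the end of 7SK (ENSMUSG00000027968.11, chr3:127536714-127553349, minus strand), and its window held a single region, chr3:127552841-127553781, which it shares with the start of the divergent gene Zgrf1. The level was 167, 149 and 181 in Control and 136, 169 and 157 in MMF LSCs. The groups overlapped, with 166 ± 15.9 against 154 ± 16.3 (SD, n = 3 each), a log2 difference of -0.11 ± 0.11 (SE) and a limma adjusted p of 0.524. The difference stood at percentile 48.6 of all coding promoters.

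**Figure D4:**
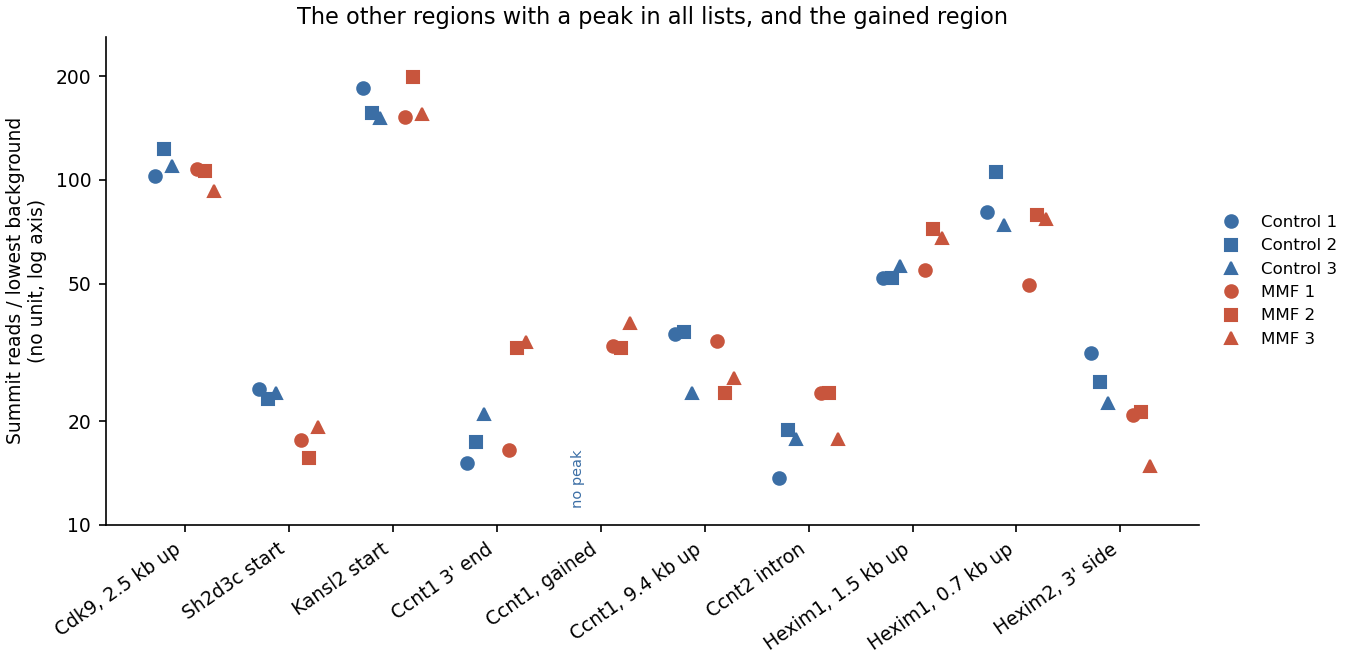
Level (y axis, log scale, no unit) of the regions other than the 6 promoters that had a peak in all lists, and of the gained region, in the 3 Control (blue) and 3 MMF (red) samples. The MMF samples lie below the Control samples at the Sh2d3c start (15.6 to 19.2 against 23.1 to 24.7) and on the 3′ side of Hexim2 (14.8 to 21.2 against 22.6 to 31.6), and the gained region has no Control points.

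In the Control samples the mean promoter levels ran from Hexim2 (202) through Hexim1 (197), Ccnt1 (189), Larp7 (166) and Cdk9 (152) to Ccnt2 (143). Every pair of neighbours in this order overlapped between samples. In the MMF samples the order was Hexim2 (185), Hexim1 (164), Larp7 (154), Ccnt1 (145), Ccnt2 (135) and Cdk9 (123), again with overlap between all neighbours. All 6 promoters were among the more accessible ones, from percentile 89.8 at Ccnt2 to 99.2 at Hexim2 of the coding promoters in the Control samples.

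The rest of the elongation machinery was read from a list of 33 genes, all with a promoter peak in the 6 lists. At 9 of the 33 all MMF samples lay below all Control samples and at 0 above, where 17.8% and 6.2% of all coding promoters did so. The difference was below 0 at 31 of the 33, against 68.1% of all coding promoters, with a median of -0.16 against -0.10. The coding promoters were not matched to the list by level, on which the difference depended. In the highest decile of shared regions by level the median was -0.13 and 27.8% were lower without overlap. Of the genes for 7SK and release of P-TEFb 3 of 6 were lower without overlap, of the super elongation complex 3 of 9, of the pausing factors 0 of 6, of the PAF1 complex with Supt6 2 of 6, and of other kinases and cyclins 1 of 6, each beside the same 17.8%. The largest differences were at Ell3, a member of the ELL family of elongation factors, with levels of 22.0, 30.4 and 29.0 against 18.7, 19.8 and 14.8 and a log2 difference of -0.61. Ddx21, an RNA helicase that can free P-TEFb from 7SK, had 100.2, 92.6 and 108 against 72.6, 69.4 and 76.9, with a log2 difference of -0.46. Supt6, a histone chaperone that travels with the polymerase, had 125, 117 and 114 against 82.5, 90.7 and 91.6, with a log2 difference of -0.43. The mean percentile rank in the whole list differed by -20.1 points at Ell3 and -6.18 at Supt6, but by 0.02 at Ddx21. The promoter of Rn7sk, the gene of the 7SK RNA itself, had 163, 133 and 153 against 133, 105 and 143, which overlapped. By percentile rank in the whole list 3 of the 33 were lower and 2 higher without overlap, where 9.70% and 7.90% of all coding promoters were. With median-ratio scaling 22 were lower and 0 higher, where 44.8% and 3.12% of all coding promoters were.

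**Figure D5:**
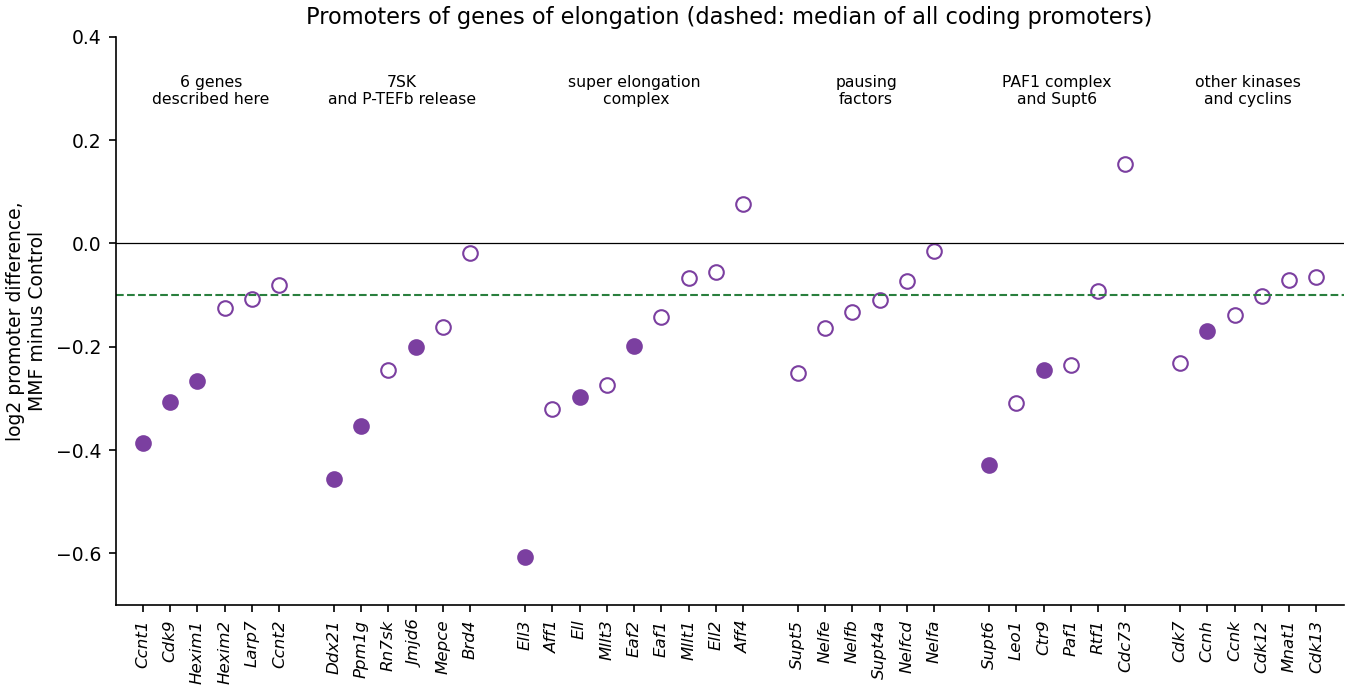
Promoter difference between the groups (y axis, log2, MMF minus Control) for the 6 genes and the 33 other genes of elongation, ordered within each list. Filled circles mark genes whose MMF samples all lie below their Control samples, open circles genes whose groups overlap, and the dashed line is the median of all coding promoters (-0.10). Filled circles number 3 of the 6 genes and 9 of the 33, and only Aff4 and Cdc73 lie above 0.

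The promoters whose levels ran most like those of each gene over the 6 samples were named by Pearson correlation, as a description. For Cdk9 these were Cdh24 and Gm17606 (r = 0.995 each), for Ccnt1 Map7d1 (0.998) and Gtf3c1 (0.995), for Ccnt2 Mtrex and Dhx29 (0.992 each), for Hexim1 Adipor1 (0.997) and Echdc1 (0.995), for Hexim2 Mrpl13 and Mtbp (0.991 each), and for Larp7 Ccny (0.994) and Grina (0.991). Cdh24 with Gm17606, Mtrex with Dhx29 and Mrpl13 with Mtbp have identical values because each pair shares 1 promoter peak. Such values are the highest of 11704 promoters over 6 samples that share the 2 groups and the same scaling.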

How the data were processed

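Peak lists of 6 ATAC-seq samples, 3 Control and 3 MMF by their labels, were analysed. Read quality control and trimming (FastQC, Trim Galore), mapping to mm10 (Bowtie2) and peak calling per sample (MACS2) were the work of the authors. In the deposited lists, fold enrichment is a ratio of summit reads to local background, p and q are −log10 values, and the score column was not used. The values show shortest peaks of 150 bp and a lowest −log10 p close to 3. MACS2 settings are not given in the sources used here.

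Peaks on chromosomes 1 to 19, X and Y were kept, leaving out at most 0.270% of a list, and were merged over the lists. A region counted as present in a list that overlapped it by 1 bp or more. Whole summit reads and the local background were solved from fold enrichment, with a pseudocount of 1 on each, and Poisson p. At least 99.998% of peaks gave reads within 0.05 of a whole number. Levels are summit reads divided by the lowest background of the sample, which was 0.620 to 0.909 reads, and they describe called peaks only. The 41182 shared regions were compared on log2 levels (with a trend) and on normal scores of fold-enrichment ranks using limma 3.58.1 under R 4.3.3, with Benjamini-Hochberg adjustment over all of them, a threshold of 0.05 and no block. Single promoters were compared by exact permutation tests in scipy 1.17.1. The steps were tested on simulated data. Motifs were searched in GRCm38 with pysam 0.24.0.

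The 6 genes and the gene lists were chosen with earlier results of these data known. Genes named besides the 6 were those with a start in a region of the windows that was gained, called or at a transcription start, the 3 largest falls and rises without overlap among elongation genes (no gene rose), and 2 promoters most like each gene. Rn7sk, Aff4, Cdc73 and the markers named were chosen after their values were seen. Alternatives are given with their effect in the closing section.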

Additional observations from a re-analysis of the deposited data

How the results depend on the processing

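The gained region upstream of Ccnt1 stayed gained with peaks of −log10 q of 2 or more. It also did so with at least 2 lists of a group required and without any 1 sample. These last outcomes hold by construction for a region with a peak in 3 MMF lists and in no Control list. The count of gained regions was 0 at equal list length and 2 at an overlap of at least 50% of the merged region, an alternative chosen after seeing the data, which added the 3′ region of Ccnt1. Leaving out 1 sample gave 1 to 2, the added one being a Ccnt2 intron without Control replicate 1. An overlap of 50% of the region or of the peak gives the same count by construction, because each peak lies wholly in its merged region. No region was lost except at equal list length, which gave 1, the Sh2d3c start.

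On ranks, the 2 calls became 1 by rank of −log10 p and 0 of 13 tested at equal list length. In these settings 725 of 41182 and 1359 of 35988 shared regions were called. Both calls were lost when a sample was left out, where the smallest limma adjusted p was 0.0740 to 0.119. Without Control replicate 1 this test called 12 shared regions, and without any other sample 0. Their loss is therefore not particular to these regions. On levels, the 2 calls became 6 with median-ratio scaling (all promoters but that of Ccnt2, and the Hexim1 region 749 bp upstream). This scaling moved every difference down by 0.18 log2 units and called 10489 regions in either direction. With it 44.8% of coding promoters were lower without overlap (main test 17.8%). The calls ranged from 1 to 3 when a sample was left out, where 7772 to 8994 of all shared regions were called. The calls on ranks were also lost with the replicate block, at 0.0829 (3′ side of Hexim2) and 0.0899 (Sh2d3c start). Quantile normalization also gave 2, where 6522 of all shared regions were called. These 2 were the 3′ side of Hexim2 (adjusted p = 0.0191) and the Sh2d3c start (0.0239), with Ccnt1 at 0.130 and Cdk9 at 0.288. The cause was not tested.

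The promoter difference kept its direction at all 6 genes without any 1 sample. With median-ratio scaling it did so by construction, as this scaling lowered every difference and all 6 were already below 0. A promoter of 500 bp on either side gave the same differences. By rank at equal list length the difference was below 0 at all 6, where the median over coding promoters was -5.34 points. It was -30.4 points at Cdk9, -9.09 at Ccnt1, -5.29 at Hexim1, -1.67 at Larp7, -1.16 at Ccnt2 and -0.484 at Hexim2. With quantile normalization, an alternative added after seeing the data, 3 of the 6 were lower and the promoter difference reversed at Hexim2 (0.052), Larp7 (0.044) and Ccnt2 (0.045). By rank in the whole list it reversed at Hexim1 (1.38 percentile points) and Ccnt2 (0.83 percentile points). Of the elongation genes, 22 were lower without overlap with median-ratio scaling, 3 by rank in the whole list (with 2 higher), and 10 to 15 when a sample was left out (with 0 to 1 higher), where 44.8%, 9.70% and 22.0% to 28.8% of all coding promoters were lower.

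Same-numbered samples did not deviate together, with correlations of their deviations from the group means between -0.00257 and 0.00698, so the replicate numbers were not taken as pairs. With the replicate block, 3 regions were called on levels, where 10178 of all shared regions were called. The promoter of Hexim1 (adjusted p = 0.04999) joined Ccnt1 (0.00488) and Cdk9 (0.0391). On ranks 0 were called, where 0 of all shared regions were called. The promoter differences are the same with the block by construction. The peaks of regions absent from some lists rest on 5 to 30 summit reads.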
